A study of Homo sapiens with 2 samples.

Results

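YAP1 and WWTR1 (the gene of TAZ), their DNA-binding partner TEAD1 and the target genes CCN2 (CTGF), CCN1 (CYR61) and ANKRD1 were followed through the chromatin contacts of 2 METTL3 HiChIP libraries. The loci were 6 windows of build hg19, and a contact counted for a gene when an anchor, the genomic interval at either end of a contact, overlapped its window by at least 1 bp. They held 95 of the 12221 control interactions (0.777%) and 215 of the 150390 senescent interactions (0.143%). The genes were chosen by their roles and selected on the contacts that these same libraries listed at them, so their values are a description and carry no test. HiChIP ligates neighbouring pieces of chromatin and then enriches ligated fragments bound by a protein, here METTL3, the catalytic subunit of the enzyme that methylates adenosines in RNA. Each interaction is given with its number of paired-end tags (PETs), the sequenced read pairs that join its anchors.

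The cells were IMR90, a line of human embryonic lung fibroblasts, labelled WT in both groups and grown under 2% oxygen. The control group was 1 library of cells labelled control. The senescent group was 1 library of cells in which senescence was driven by inducible expression of ER: RAS, a fusion of the estrogen receptor with H-RASG12V. The protocol is a single text for both libraries, and the labels do not state whether the control cells carried the fusion without induction, nor for how long it was induced. With 1 library per group, the library and the condition cannot be told apart, and every interval below is a 95% interval for counting error only. The tables differed in size, with 14373 control PETs and 184165 senescent PETs, 12.8 times as many, so values are given both as listed and per 100000 deposited PETs. The median interaction had 1 PET in each library.

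YAP and TAZ are coactivators that carry no DNA-binding domain of their own. When the Hippo kinases are inactive, on stiff substrates or in spread cells, they enter the nucleus and act through TEAD factors, often at enhancers far from the genes they control. In fibroblasts they are known for driving matrix and cytoskeletal genes, among them CCN2 and CCN1, which encode secreted matricellular proteins, and ANKRD1, which encodes an ankyrin repeat protein of muscle and injured tissue.

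The promoters of CCN2, ANKRD1 and YAP1 are shown for the TEAD motif, which links the target genes to the factors followed here. The 250 bases before the start are printed 5′ to 3′ on the gene's strand, from RefSeq on GRCh38.p14 (other coordinates in the text are hg19), with matches to the TEAD core GGAATG on either strand in capitals. CCN2 is on the minus strand at chr6:131951373-131951622, ANKRD1 on the minus strand at chr10:90921088-90921337, and YAP1 on the plus strand at chr11:102110197-102110446.
CCN2: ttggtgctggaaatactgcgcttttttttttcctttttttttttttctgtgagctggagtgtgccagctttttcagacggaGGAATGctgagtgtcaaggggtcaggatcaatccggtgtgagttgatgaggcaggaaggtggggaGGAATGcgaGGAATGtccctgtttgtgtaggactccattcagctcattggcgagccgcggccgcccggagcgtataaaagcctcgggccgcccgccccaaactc
ANKRD1: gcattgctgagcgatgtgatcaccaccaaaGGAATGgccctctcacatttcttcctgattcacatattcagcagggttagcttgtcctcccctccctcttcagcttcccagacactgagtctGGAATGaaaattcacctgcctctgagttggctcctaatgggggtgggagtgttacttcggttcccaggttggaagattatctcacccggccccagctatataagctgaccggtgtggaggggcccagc
YAP1: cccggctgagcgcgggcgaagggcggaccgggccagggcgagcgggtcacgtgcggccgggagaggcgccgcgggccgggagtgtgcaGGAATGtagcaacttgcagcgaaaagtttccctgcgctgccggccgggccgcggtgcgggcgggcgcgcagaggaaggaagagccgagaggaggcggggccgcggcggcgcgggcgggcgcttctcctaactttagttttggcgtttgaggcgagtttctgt

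The CCN2 promoter held 3 matches, which begin 169, 104 and 95 bases before the start. At least 3 matches stood in 29 of 35116 promoters of the same length (0.0826%). The ANKRD1 promoter held 2, which begin 220 and 128 bases before the start, against at least 2 in 0.940% of promoters. The YAP1 promoter held 1, against at least 1 in 11.9% of promoters, and both WWTR1 promoters in the table held none. The AP-1 core TGANTCA, the same on both strands, was present once, in the ANKRD1 promoter, apart from its TEAD matches, and stood in 6.57% of promoters. A match describes these letters and does not show that a factor binds there. Promoter sequences were found for 4 of the 6 genes.

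Per 100000 deposited PETs, 4 of the 6 loci were at least 2-fold higher in the control library: CCN2, WWTR1, YAP1 and CCN1. TEAD1 lay below that limit, and ANKRD1 had too few PETs in its window for a ratio. As background, the genome was divided into tiles as wide as each window. Among tiles with at least 20 PETs over both libraries, the same limit was passed by 14.7% of 30-kb tiles (the width of the CCN1 window), 17.6% of 130-kb tiles (CCN2), 17.9% of 140-kb tiles (YAP1), 19.8% of 230-kb tiles (WWTR1) and 20.5% of 280-kb tiles (TEAD1). Many tiles had no control PET, and among tiles with PETs in both libraries the shares were 42.1%, 35.7%, 35.3%, 34.0% and 33.8% in the same order. The direction rested on the scaling at CCN1, WWTR1, YAP1 and TEAD1, where the senescent library had more PETs as listed, and did not at CCN2. A tile with no control PET cannot have a low ratio, so shares of tiles with a ratio as low as a locus are given below over all tiles and over those with PETs in both libraries.

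**Figure D1:**
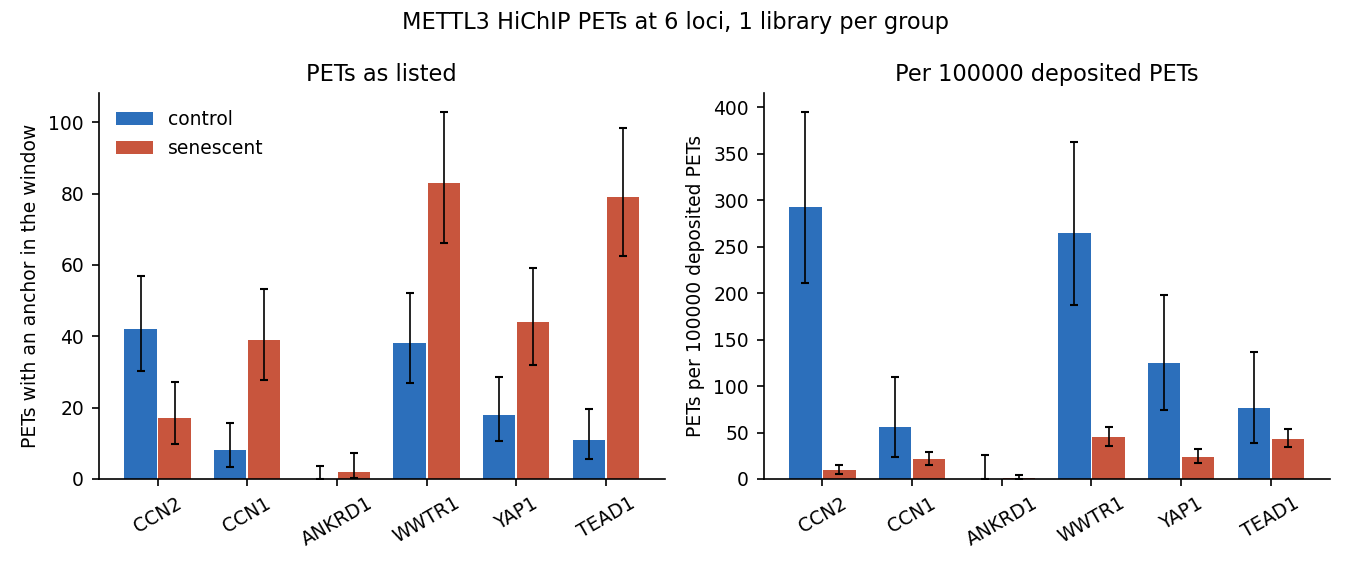
PETs of interactions with an anchor in each window (y axes), in the control library (blue) and the senescent library (red), as listed on the left and per 100000 deposited PETs on the right; error bars are exact Poisson 95% intervals of 1 library each. CCN2 is higher in the control library on both scales (42 against 17 PETs as listed), while CCN1, WWTR1, YAP1 and TEAD1 change their order with the scaling. The bar drawn for the empty ANKRD1 control window covers counting of listed PETs only and sets no limit on contacts that were not listed.

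CCN2, the target gene with the most control contacts, had 42 PETs in 30 control interactions and 17 PETs in 12 senescent interactions within chr6:132260001-132390000. The control library thus listed 2.47 times as many PETs (1.38 to 4.63) although its whole table was smaller. Among 130-kb tiles, 0.474% had at least 2-fold more control PETs as listed. Per 100000 deposited PETs the levels were 292 and 9.23, 31.7-fold higher in the control library (17.6 to 59.3). The ratio was as low in 20 of 5270 tiles (0.380%), or 0.767% of the 2607 tiles with PETs in both libraries, which is a description, since the locus was selected on these values. Scaled to the PETs of chromosome 6, of which the control library listed 1292 and the senescent library 9034, the senescent level was 0.0579 times the control level.

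The low senescent count at CCN2 was spread over most of its anchors. Where anchors of the libraries overlapped they were merged, which gave 8 anchors in the window, and 7 of them had more control than senescent PETs. The anchor at chr6:132379201-132386548 joined 11 partners with 19 control PETs, but only 2 partners with 2 senescent PETs. The senescent anchor there was narrower and began at 132384079. CCN2 is on the minus strand, so this site lies on the side before its start. Without its interactions, the locus had 23 control and 15 senescent PETs, and the senescent level per 100000 deposited PETs was 0.0509 times the control level.

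The widest anchor of the window, at chr6:132266853-132277680, had 13 control PETs to 9 partners and 8 senescent PETs to 4 partners. The CCN2 gene is known to lie inside it, a placement from general knowledge, since no hg19 annotation was used. Anchors at chr6:132300468-132302339 and chr6:132315648-132318470 had 3 and 5 PETs in the control library and were not listed for the senescent library. The anchor at chr6:132258430-132262384, which straddles the lower edge of the window, had 7 and 2 PETs. The anchor at chr6:132361959-132364038 was the exception, with 4 senescent PETs and no control listing.

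The partners of the wide CCN2 anchor differed between the libraries. In the control library it was joined by 3 PETs to chr6:132379201-132386548, by 2 PETs to chr6:132373320-132376989 and by 2 PETs to chr6:132442727-132446773. The first of these had the lowest deposited significance value of the control interactions at this locus, 6.82e-05. In the senescent library it was joined by 4 PETs to chr6:132451767-132455072, 181 kb away, with a deposited value of 9.49e-10, the lowest among all interactions of the 6 loci. The site at chr6:132373320-132376989 was also joined to that partner, by 2 senescent PETs. In the control library the same partner site had 1 PET with the window, to the anchor at chr6:132379201-132386548. The control interaction with the most PETs joined chr6:132379201-132386548 to chr6:132405028-132407779, 23.5 kb away, with 4 PETs and a deposited value of 0.0152.

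Control contacts of CCN2 ran mostly to higher coordinates, towards MOXD1 and STX7, the next coding genes on that side. Of the control interactions, 9 stayed within the window, 19 had their partner above it and 2 below it. Of the senescent interactions, 5 stayed within, 5 went above and 2 below. The longest control contact spanned 1929 kb and the longest senescent contact 1350.5 kb, each with 1 PET. Of the 30 control interactions, 1 had a senescent interaction at both anchors (3.33%, 0.0844 to 17.2%), and it was 1 of the 12 senescent interactions (8.33%). It joined the wide anchor to chr6:132379201-132386548, with 3 control PETs and 1 senescent PET. Over whole libraries, 16.6% of control interactions and 1.29% of senescent interactions had such a counterpart.

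**Figure D2:**
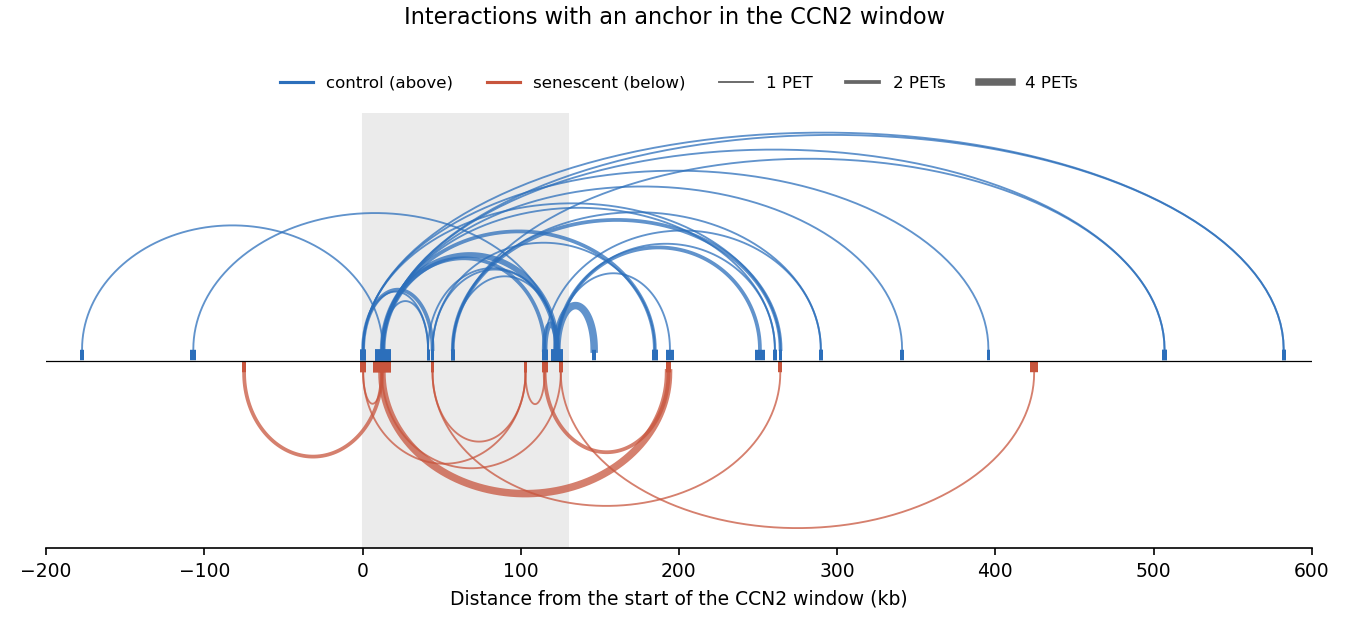
Interactions with an anchor in the CCN2 window (grey) by distance from the window's start in kb (x axis), control above the line in blue and senescent below in red; line width grows with PETs, blocks on the line are anchors, arc height only separates the arcs, and 2 longer interactions per library are not drawn. The control arcs fan out from the wide anchor and from the site near 123 kb, while the thickest senescent arc, of 4 PETs, joins the wide anchor to a site 181 kb away.

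CCN1 had the opposite order as listed, with 8 PETs in 8 control interactions and 39 PETs in 30 senescent interactions within chr1:86030001-86060000. Per 100000 deposited PETs the levels were 55.7 and 21.2, with a senescent over control ratio of 0.380 (0.175 to 0.943). The ratio was as low in 11.98% of 30-kb tiles, and in 34.2% of those with PETs in both libraries. CCN1 and CCN2 encode proteins of the same family and are read as targets of the same factors. A difference between the ratios of these loci was not tested.

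Both anchors of the CCN1 window were listed in both libraries and were wider in the senescent library. The control anchors were 2692 and 2844 bp wide, and the senescent anchors 5038 and 14027 bp. The wider senescent anchor, at chr1:86040865-86054891, is known to hold the CCN1 gene. It had 22 partners and 30 PETs, against 5 partners and 5 PETs in the control library. The anchor at chr1:86033557-86038594 had 12 senescent PETs and 3 control PETs.

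Repeated senescent contacts of CCN1 reached down to a group of 3 sites as far as 268 kb away, on the side of DDAH1, the nearest coding gene there, and of BCL10 beyond it. The sites at chr1:85776459-85782760, chr1:85784548-85792205 and chr1:85793142-85798021 had 3, 3 and 4 senescent PETs with the window. The first and the second had 1 control PET each, and the last had none with the window. Of the senescent interactions, 22 had their partner below the window, 7 above and 1 within. The strongest were of 3 PETs each, with chr1:86015592-86018317 and between both anchors of the window. All control interactions at CCN1 had 1 PET. Of these 8, 5 had a senescent counterpart (62.5%, 24.5 to 91.5%), which made up 16.7% of the senescent interactions. The shares over whole libraries were 16.6% and 1.29%.

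ANKRD1 was nearly without contacts. The control library listed no anchor in chr10:92660001-92690000, and the senescent library 2 interactions of 1 PET each. One joined chr10:92680000-92683273 to a site 1288 kb below, and the other joined chr10:92689303-92693642 to a site 42.8 kb below. The second anchor overlapped the window by only 698 bp. A fold was given only with a PET in each library and more than 3 in sum, and the control library had none here. The tables hold only pairs that were listed, so no upper limit can be set for the control library.

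WWTR1, which encodes TAZ, had the most contacts of the 6 loci over both libraries together, with 38 PETs in 35 control interactions and 83 PETs in 68 senescent interactions within chr3:149230001-149460000. Per 100000 deposited PETs the levels were 264 and 45.1, 5.87-fold higher in the control library (3.89 to 8.71), an order that turned without scaling. A ratio as low was found in 6.12% of 230-kb tiles, and in 10.5% of those with PETs in both libraries. As listed, the senescent library had 2.18 times as many PETs (1.47 to 3.297). Over interactions whose anchors both overlapped an anchor of the other library, the PETs were 35 and 39, a ratio as listed of 1.11 (0.688 to 1.81).

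The anchor of WWTR1 with the most PETs differed between the libraries. The control library was fullest at chr3:149289586-149301228, with 16 PETs to 14 partners. The senescent library had nearly as many there, 15 PETs, over 2 separate anchors that began at 149289586 and 149296461. The senescent library was fullest at chr3:149370767-149381433, with 22 PETs against 10 in the control library. There the control library listed 2 separate anchors, which began at 149371079 and 149375236. The anchor at chr3:149340925-149348786 had 17 senescent PETs and no control listing. It took part in the strongest senescent interactions of the locus, with 4 PETs to chr3:149355779-149358056 and 3 PETs to chr3:149370767-149381433.

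Of the 16 merged anchors in the WWTR1 window, 10 were listed in both libraries, 5 in the senescent library alone and 1 in the control library alone. Over whole libraries, 69.8% of control anchors and 11.04% of senescent anchors overlapped an anchor of the other library. The control-only anchor was chr3:149419432-149422490, with 2 PETs. The longest repeated control contact of all 6 loci joined chr3:149371079-149373007 to chr3:149862570-149867068, 493 kb above, with 2 PETs and a deposited value of 0.000513. The senescent library listed neither this contact nor another between the window and that partner, although the partner site had 7 senescent PETs in all. Counterparts were found for 10 of the 35 control interactions (28.6%, 14.6 to 46.3%), and 11 of the 68 senescent interactions (16.2%). Shares over whole libraries were 16.6% and 1.29%. Within the window lay 60% of control interactions (42.1 to 76.1%) and 45.6% of senescent interactions (33.5 to 58.1%), intervals that overlap.

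YAP1 had 18 PETs in 12 control interactions and 44 PETs in 33 senescent interactions within chr11:101970001-102110000. Per 100000 deposited PETs the levels were 125 and 23.9, 5.24-fold higher in the control library (2.85 to 9.26), an order that turned without scaling, and 6.82% of 140-kb tiles, or 13.4% of those with PETs in both libraries, had a ratio as low. As listed, the senescent library had 2.44 times as many (1.38 to 4.49). Interactions with both anchors shared held 8 control and 7 senescent PETs.

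The control anchor with the most PETs at YAP1 lay near the middle of the window. The anchor at chr11:102038242-102044133 had 9 PETs to 5 partners in the control library and was not listed for the senescent library. It took part in both of the strongest control interactions, of 3 PETs each, with chr11:102046609-102050360 and chr11:102023777-102026595, 7.30 and 16.0 kb away. Each of these had a deposited value of 0.0608. The lowest control value at the locus, 0.00443, belonged to a contact of 2 PETs over 86.7 kb. Without the anchor at chr11:102038242-102044133 the locus had 9 control PETs and 44 senescent PETs. The senescent level per 100000 deposited PETs was then 0.382 times the control level. A senescent anchor stood close by instead, at chr11:102051025-102055623, with 7 PETs and no control listing.

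The fullest senescent anchor at YAP1 lay on the upper edge of the window. The anchor at chr11:102109813-102119683 reached into the window by 188 bp and had 19 senescent PETs to 9 partners, with no control listing. It was joined by 4 PETs each to chr11:102107274-102108956 and to chr11:102125838-102128591. It was also joined by 2 PETs to chr11:101730809-101742853, 378 kb below, with a deposited value of 5.79e-05. Counted by anchor midpoint, which leaves it out, the locus had 31 senescent PETs. The next senescent anchor outside that edge stood 12.2 kb beyond it. Of the 12 control interactions at YAP1, 3 had a senescent counterpart (25%, 5.49 to 57.2%), and of the 33 senescent interactions 4 had a control counterpart (12.1%). Whole libraries had shares of 16.6% and 1.29%.

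Among the 5 loci with a ratio, TEAD1, the DNA-binding partner, differed least between the libraries per deposited PET but most as listed. It had 11 PETs in 10 control interactions and 79 PETs in 70 senescent interactions within chr11:12690001-12970000. As listed, the senescent library thus had 7.18 times as many PETs, so the rank of this locus rested on the scaling. The levels were 76.5 and 42.9 per 100000 deposited PETs, and the senescent over control ratio of 0.5605 had an interval that held 1 (0.297 to 1.17). A ratio as low was found in 22.2% of 280-kb tiles, and in 36.5% of those with PETs in both libraries. YAP1 and TEAD1 lie on chromosome 11, where the control library listed 723 PETs and the senescent library 9620.

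The senescent anchors of TEAD1 were spread along its window. Over the whole senescent library, 11.04% of anchors overlapped a control anchor. Of 21 merged anchors in the TEAD1 window, 9 were listed in both libraries and 12 in the senescent library alone. The fullest was chr11:12774490-12779080, with 13 senescent PETs and no control listing, and its contact with chr11:12781360-12783606 had 4 PETs over 5.70 kb. It was also joined by 2 PETs to chr11:12232031-12240161, 541 kb below, with a deposited value of 4.78e-05. The anchor at chr11:12694277-12699213, at the end of the window where the gene is known to start, had 8 senescent PETs and no control listing. It was joined by 2 PETs to chr11:12834035-12841059, 141 kb away.

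The control contacts of TEAD1 were fullest at 1 anchor. The anchor at chr11:12808810-12812236 had 5 control PETs and 1 senescent PET, the only anchor of this window with more control PETs. Without its interactions the locus had 6 control and 78 senescent PETs, and the ratio per 100000 deposited PETs was 1.01 (0.446 to 2.85). Partners outside the window lay below it for 6 control interactions, on the side of PARVA and MICAL2, and above it for none. In the senescent library 34 lay below and 9 above. A counterpart was found for 1 of 10 control interactions (10.0%, 0.253 to 44.5%) and 1 of 70 senescent interactions (1.43%). Over whole libraries these shares were 16.6% and 1.29%.

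**Figure D3:**
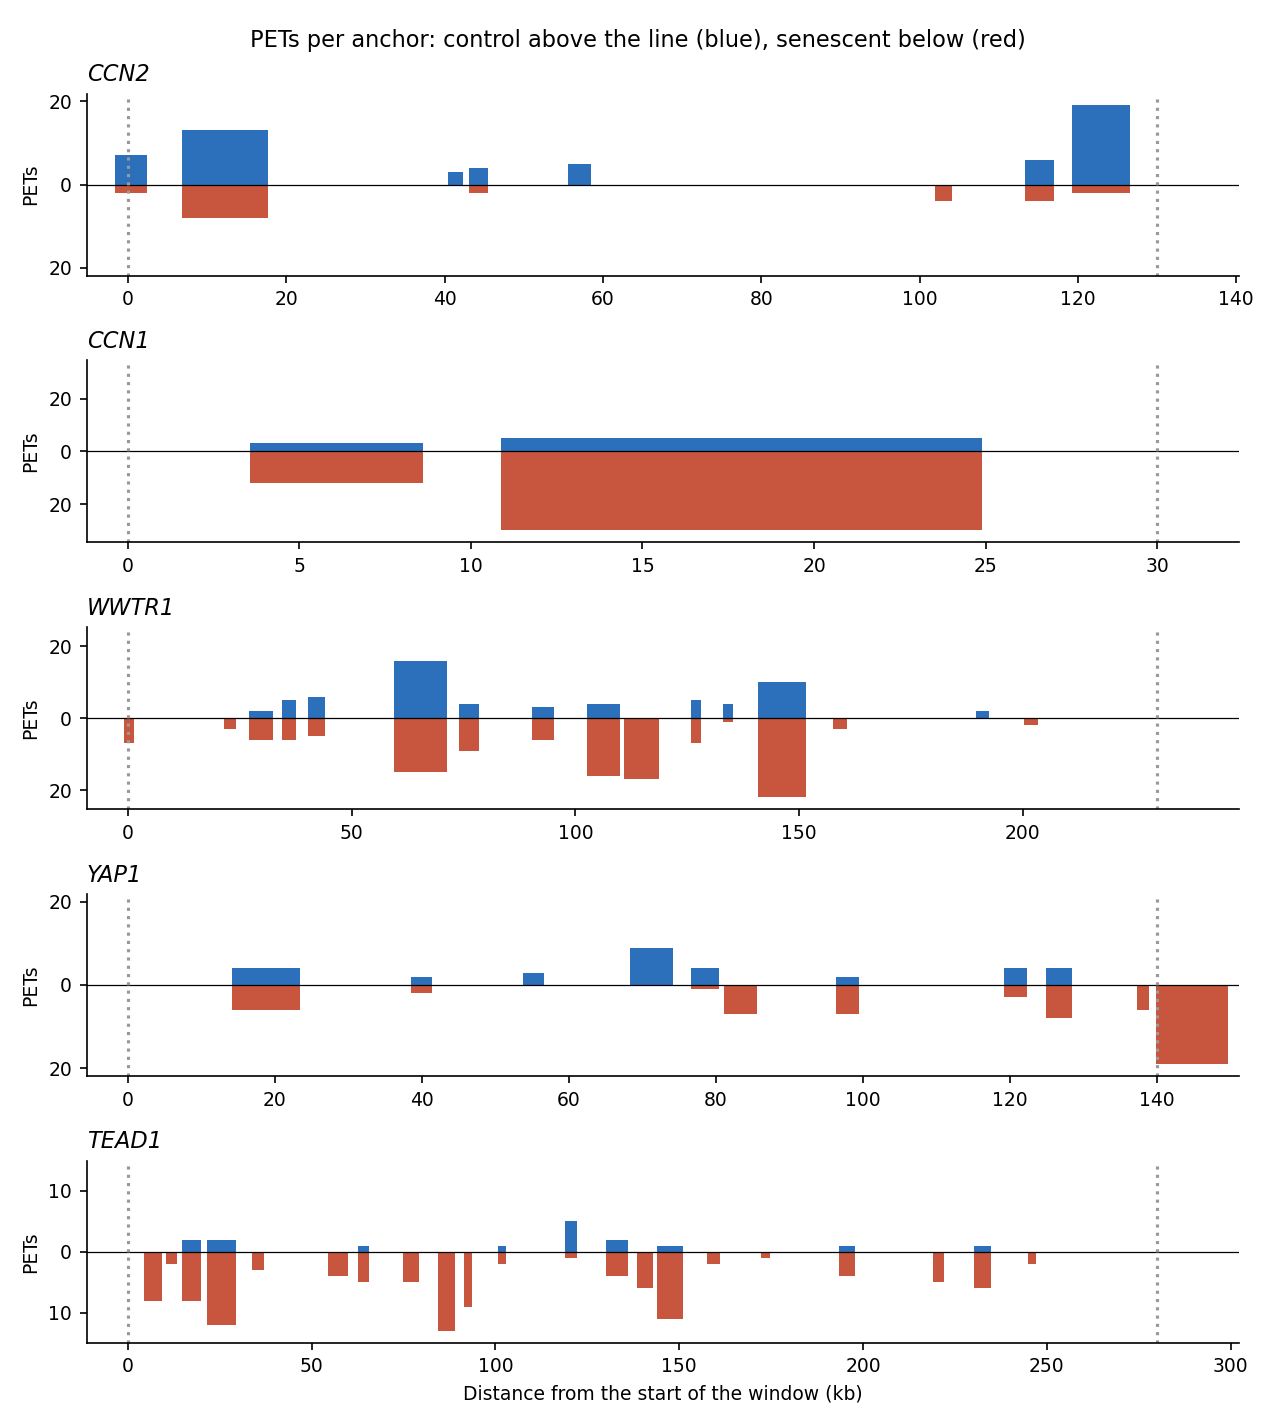
PETs per merged anchor (y axis), control above the line in blue and senescent below in red, by distance from the start of each window in kb (x axis); bars are as wide as the anchors and dotted lines mark the window's edges. At CCN2 the bar near 123 kb has 19 control and 2 senescent PETs, at YAP1 the senescent bar of 19 PETs straddles the upper edge, and at TEAD1 12 of 21 anchors have senescent PETs alone. Over the whole senescent library, 11.04% of anchors overlapped a control anchor.

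**Figure D4:**
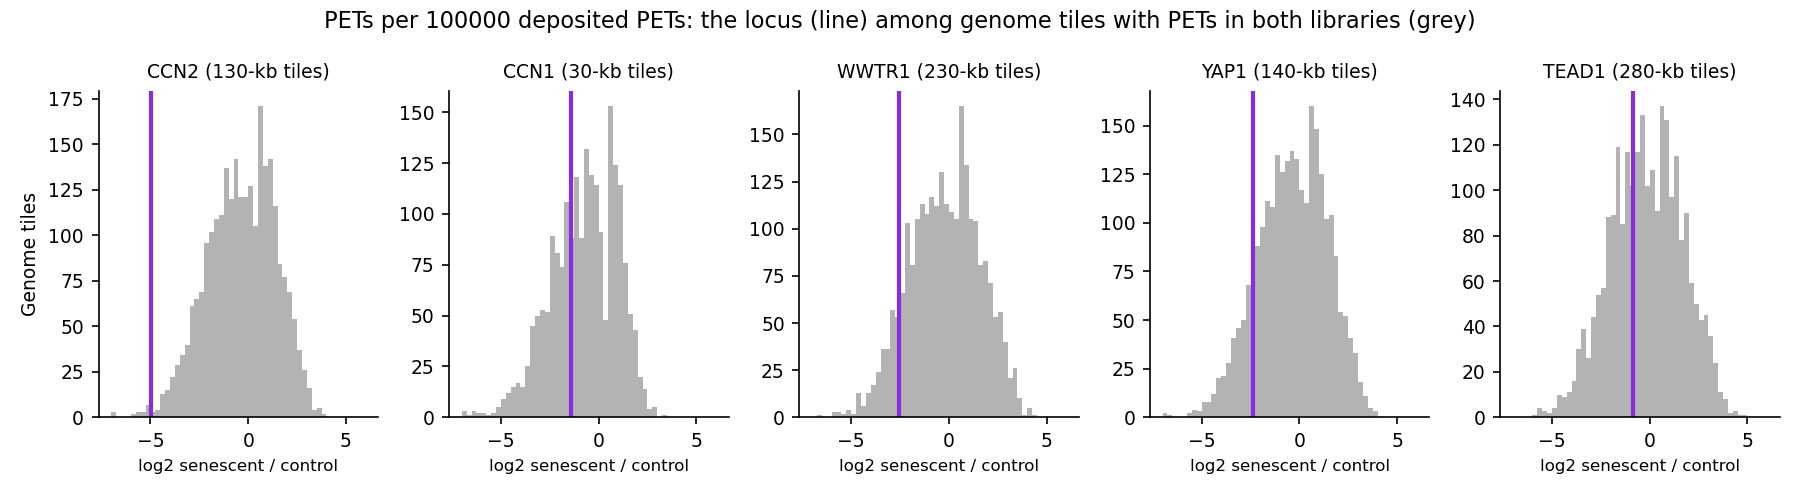
Number of genome tiles (y axis) by the log2 ratio of senescent to control PETs per 100000 deposited PETs (x axis), for tiles with PETs in both libraries and at least 20 in sum, with the locus as a line. CCN2 stands at -4.98 in the lower tail, CCN1 at -1.39, WWTR1 at -2.55, YAP1 at -2.39 and TEAD1 at -0.84; as listed, without scaling, all of these but CCN2 had more senescent PETs.

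The spread of contact lengths was wide at every locus. The median control span at CCN2 was 173 kb (102.4 to 248 kb), and the median senescent span 108 kb (58.7 to 299 kb). At WWTR1 the medians were 76.6 kb (36.6 to 215 kb) for control and 108 kb (52.6 to 216 kb) for senescent contacts. At YAP1 they were 83.3 kb (16.0 to 425 kb) and 73.9 kb (35.995 to 104.5 kb). At TEAD1 they were 119 kb (13.3 to 451 kb) and 198 kb (137 to 310 kb), and at CCN1 172 kb (18.0 to 1158 kb) and 244 kb (74.5 to 274 kb). The intervals of both libraries overlapped at each of these 5 loci, which does not show that the spans were equal. Whole libraries had medians of 85.4 and 97.1 kb.

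**Figure D5:**
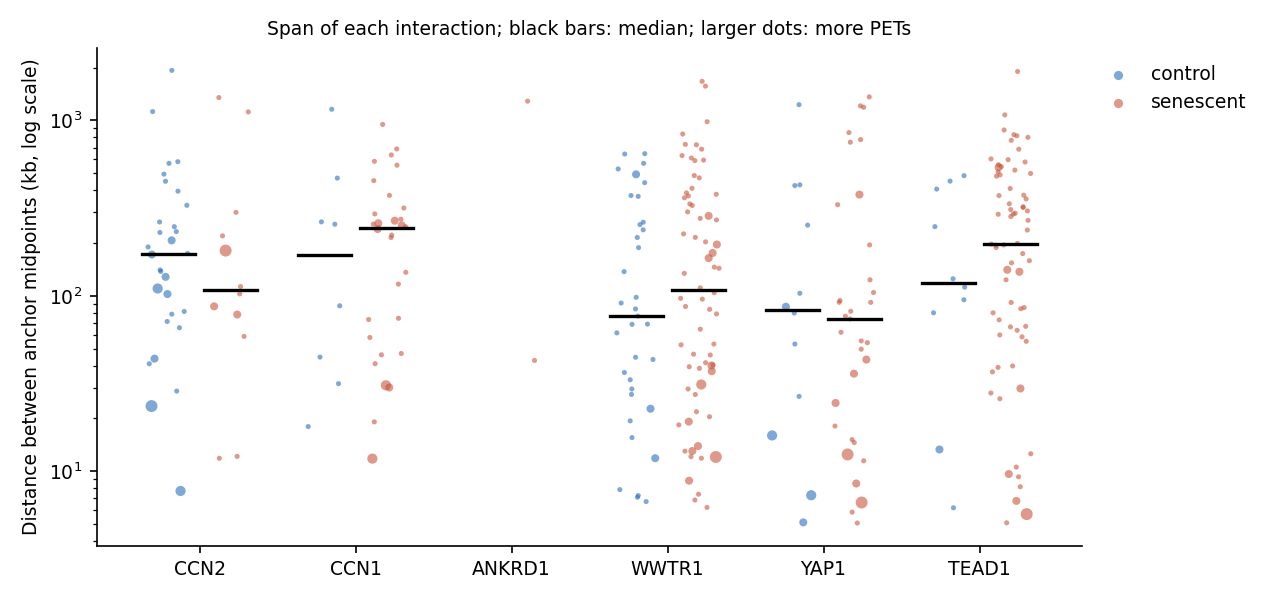
Distance between anchor midpoints in kb (log y axis) of every interaction at each locus (x axis), control in blue and senescent in red, with larger dots for more PETs and black bars for the median of at least 6 interactions. The senescent contact of CCN2 with 4 PETs stands at 181 kb, and the longest contact with at least 2 PETs is a senescent one of TEAD1 at 541 kb.

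Over the 6 loci, 33 of 38 control anchors (86.8%, 71.9 to 95.6%) overlapped a senescent anchor, and 34 of 57 senescent anchors (59.6%, 45.8 to 72.4%) overlapped a control anchor. Over whole libraries these shares were 69.8% and 11.04%. Counterparts at both anchors were found for 20 of 95 control interactions (21.1%, 13.4 to 30.6%) and 22 of 215 senescent interactions (10.2%, 6.52 to 15.1%). For all interactions of each library the shares were 16.6% and 1.29%. The loci were selected on listed contacts and held 0.777% of control but 0.143% of senescent interactions. The senescent shares of anchors and interactions depend on that density of control contacts, so no conclusion is drawn from their distance from the whole library.

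Just outside the windows the senescent library had as many or more PETs as listed at each locus. Interactions with an anchor within 50 kb of a window but none inside it had 2 control and 2 senescent PETs at CCN2, and 28 and 33 PETs at CCN1. At ANKRD1 they had 3 and 9 PETs (control and senescent), at WWTR1 2 and 21, at YAP1 0 and 13, and at TEAD1 1 and 4. Scaled to deposited PETs, the senescent over control ratios of these flanks were 0.0780 at CCN2, 0.0920 at CCN1 and 0.234 at ANKRD1. They were 0.819 at WWTR1 and 0.312 at TEAD1, and YAP1 had no control PET for a ratio. Only the interval of CCN1 lay below 1 (0.0539 to 0.158), and those of the other flanks with a ratio held 1. The order as listed thus rested on the scaling at CCN1.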

How the data were processed

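METTL3 HiChIP was measured in 1 control and 1 senescent IMR90 library. Fixation was in 1% formaldehyde for 10 min, MboI cut the chromatin, and Tn5 was used for the libraries, per the labels' protocols. The submitters' processing notes name HiC-Pro 3.1.0 and hg19. How anchors were defined, interactions called and duplicates removed is not given in the sources used here. No file has a header line. The whole number of each row was read as the deposited raw count of PETs. The last value was read as the authors' significance value, a p-value or q-value, and which of them is not stated. Only joined pairs are listed, so totals are not sequencing depths and the precision is that of the counts.

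The 6 windows follow a rule with limits in steps of 0.01 Mb; members, windows and lists were chosen with earlier results of these data known. All members are named, with up to 3 of the fullest anchors per library and the strongest and longest interactions; other anchors were named after their values were seen. Further Hippo pathway genes listed in the plan were not placed, since no hg19 annotation was used. PETs were scaled to 100000 deposited PETs. Ratios have exact conditional binomial intervals, shares exact Clopper-Pearson intervals and medians order-statistic intervals, all at 95%; copies of the same molecule would make them too narrow. With 1 library per group, groups were not tested against each other. The ratio was tested on simulated data. Python 3.11.15, numpy 2.4.6, pandas 2.3.3, scipy 1.17.1 and matplotlib 3.10.9 were used. Gene order came from RefSeq on GRCh38.p14, by name only. Coordinates are 1-based.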

Additional observations from a re-analysis of the deposited data

How the results depend on the processing

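CCN2 was higher in the control library under every scaling and filter tried. The direction at CCN1, WWTR1, YAP1 and TEAD1 rested on the scaling, though the interval of TEAD1 per 100000 deposited PETs held 1. The senescent over control ratios without scaling were 0.405 at CCN2, 4.88 at CCN1, 2.18 at WWTR1, 2.44 at YAP1 and 7.18 at TEAD1. With shared-anchor PETs as the scale they were 0.355, 4.28, 1.92, 2.15 and 6.30, in the same order. Each of these scalings left 1 locus, CCN2, at least 2-fold higher in the control library, against 4 per 100000 deposited PETs. Scaled to the same chromosome, CCN2 stood at 0.0579 and WWTR1 at 0.273. With at least 2 PETs, WWTR1 stood at 0.307, and CCN1 had no control interaction left. With windows widened by 50 kb, CCN1 stood at 0.156. Among alternatives chosen after seeing the data, interactions between shared anchors without scaling gave 0.393 at CCN2, 4.14 at CCN1, 1.11 at WWTR1, 0.875 at YAP1 and 1.82 at TEAD1. Leaving out the anchor with the most control PETs gave 0.382 at YAP1. Of 49 alternative ratios, 29 stayed within the interval of the reported value. With at least 2 PETs, 5 median spans fell below their intervals. They were 22.7 kb (control) and 34.2 kb (senescent) at WWTR1, 11.6 and 24.5 kb at YAP1 and 29.6 kb in the senescent library at TEAD1. The control medians rested on 3 interactions at WWTR1 and 4 at YAP1. Medians of 106 and 87.1 kb at CCN2, 240 kb (senescent) at CCN1 and 13.3 kb (control, 1 interaction) at TEAD1 stayed within theirs. The cause of these shifts was not tested. Shares within the window and shares of shared anchors stayed within their intervals in all alternatives run. ANKRD1 had too few PETs in its window for a ratio; with the window widened by 50 kb it held 3 control and 11 senescent PETs, a ratio of 0.286 (0.0756 to 1.597), and was among the 5 loci then at least 2-fold higher in the control library. No paired analysis was possible because each group had 1 library.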

Other observations

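Contacts were also listed beside the CCN1 window. Interactions with an anchor within 50 kb of the window but none inside it had 28 control PETs in 26 interactions and 33 senescent PETs in 29 interactions. Inside the window the counts were 8 and 39, over 30 kb against 50 kb on each side, so the counts are not per length. The control library listed anchors at chr1:86071365-86074350 and chr1:86075301-86079766, with 7 and 6 such PETs, where the senescent library listed 1 anchor of 17 such PETs at chr1:86071130-86084683. At chr1:86015592-86021334 the control library had 6 such PETs and its senescent counterpart 5. With its PETs to the window included, this site had 8 control and 9 senescent PETs. Per 100000 deposited PETs the ratio of these flanks was 0.0920 (0.0539 to 0.158), against 0.380 in the window.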
